A study of Mus musculus with 9 samples.

Results

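The interferon response and RNA-sensing genes described here are 51 named mouse genes of 56923 in the count table. They were taken as a list of names, with no threshold on a measured value, as interferon-stimulated genes, interferon receptors and regulators, and sensors of double-stranded RNA. The list was chosen with earlier results of these data known, so its shares beside those of all genes are descriptions only. All 51 were matched by Ensembl identifier to a symbol, and 49 of them were among the 17036 genes with enough counts to test. The table holds kidney RNA from wild-type (WT) mice in 3 groups of 3 libraries. Sham mice were operated on but spared the ischemia-reperfusion (IR) injury, and their treatment label is also PBS (phosphate-buffered saline). The AKI-PBS group had acute kidney injury (AKI) and was given PBS. The AKI-PTPi@mEVs group had the same injury and received extracellular vesicles from milk (mEVs) loaded with siRNA that targets the phosphatase PTP1B, whose gene is Ptpn1. The sources used here give no strain, age, sex or time after injury. They also do not say whether each library is a separate mouse, so the p-values measure the spread between libraries, which may be technical. Vesicles without the siRNA, or with another siRNA, were not analysed here, so that the siRNA and its carrier cannot be told apart.

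Cells detect viral or misplaced double-stranded RNA in the cytoplasm with the helicases RIG-I (Ddx58) and MDA5 (Ifih1), which signal through MAVS to switch on type I interferon. Secreted interferon binds receptors on the same or neighbouring cells, and the kinases JAK1 and TYK2 then pass the signal to a complex with STAT2 and IRF9 that enters the nucleus. The complex binds the interferon-stimulated response element (ISRE) in front of antiviral genes such as Ifit3, Oas1a and Isg15, while interferon gamma acts through the gamma-activated site (GAS). In the kidney, tubular, endothelial and resident myeloid cells all carry interferon receptors. PTP1B is known to act on JAK2 and TYK2, and siRNA is itself a short double-stranded RNA.

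The RefSeq promoters of some of the genes are printed first, since the ISRE and GAS are what the interferon response is known to act through. Not all genes with calls are printed, so the printed promoters do not stand for the list. The ISRE was searched on both strands as GAAA, any 2 bases and GAAA again, which reads TTTC, any 2 bases and TTTC from the other strand, in windows of 250 bases before to 50 bases after each start on GRCm38.p6. A window was held for 40 of the 51 genes, 47 windows in all. At least 1 match was found in 18 of these 40 genes (45.0%), against 3.99% of the 27025 genes with a window. The gamma-activated site, searched as TTCNNNGAA, which reads the same on both strands, was found in 12 of the 40 (30%), against 9.55% of all genes. Some genes hold several windows, so that over single windows the shares were 3.44% for the ISRE and 8.30% for the GAS. A match is a description of letters and not evidence of a bound site.

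The sequences below are the 250 bases before the start, 5′ to 3′ on the gene's own strand, and capitals mark ISRE letters. Ifit3 (chr19:34583279-34583528, plus strand) and its close copy Ifit3b (chr19:34607707-34607956, plus strand) each hold 2 matches and share an unbroken run of 169 bases. Isg15 (chr4:156200819-156201068, minus strand), Oas1a (chr5:120907526-120907775, minus strand) and Gbp3 (chr3:142559794-142560043, plus strand) hold matches that overlap each other. Samd9l (chr6:3399572-3399821, minus strand) and Oasl1 (chr5:114922990-114923239, plus strand) are shown because they had the smallest adjusted p of their role groups and hold none of these letters in this window.

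Ifit3: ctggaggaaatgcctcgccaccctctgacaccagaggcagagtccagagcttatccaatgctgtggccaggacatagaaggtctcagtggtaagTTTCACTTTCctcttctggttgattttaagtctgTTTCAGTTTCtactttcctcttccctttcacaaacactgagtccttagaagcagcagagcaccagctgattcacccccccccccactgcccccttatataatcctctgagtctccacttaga
Ifit3b: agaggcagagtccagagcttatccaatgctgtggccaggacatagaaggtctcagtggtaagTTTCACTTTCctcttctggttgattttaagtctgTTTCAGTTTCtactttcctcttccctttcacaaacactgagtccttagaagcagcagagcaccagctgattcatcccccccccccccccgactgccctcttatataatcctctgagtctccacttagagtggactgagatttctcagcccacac
Isg15: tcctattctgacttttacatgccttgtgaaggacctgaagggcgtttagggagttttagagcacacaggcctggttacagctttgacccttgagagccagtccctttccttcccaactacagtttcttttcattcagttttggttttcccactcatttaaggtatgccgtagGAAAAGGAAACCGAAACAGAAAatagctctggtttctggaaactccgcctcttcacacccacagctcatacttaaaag
Oas1a: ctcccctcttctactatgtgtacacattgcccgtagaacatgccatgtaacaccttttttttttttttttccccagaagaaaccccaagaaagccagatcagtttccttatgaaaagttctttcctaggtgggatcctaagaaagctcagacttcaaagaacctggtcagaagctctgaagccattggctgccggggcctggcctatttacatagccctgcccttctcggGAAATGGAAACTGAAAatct
Gbp3: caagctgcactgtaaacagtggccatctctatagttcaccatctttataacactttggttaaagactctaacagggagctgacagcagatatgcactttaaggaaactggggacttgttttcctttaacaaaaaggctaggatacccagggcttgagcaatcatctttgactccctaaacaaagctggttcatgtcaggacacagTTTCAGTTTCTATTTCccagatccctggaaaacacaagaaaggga
Samd9l: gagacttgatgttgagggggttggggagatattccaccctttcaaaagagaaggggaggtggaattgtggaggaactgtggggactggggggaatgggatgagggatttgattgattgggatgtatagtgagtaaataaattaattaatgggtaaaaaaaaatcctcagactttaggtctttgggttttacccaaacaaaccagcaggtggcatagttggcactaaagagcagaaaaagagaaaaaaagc
Oasl1: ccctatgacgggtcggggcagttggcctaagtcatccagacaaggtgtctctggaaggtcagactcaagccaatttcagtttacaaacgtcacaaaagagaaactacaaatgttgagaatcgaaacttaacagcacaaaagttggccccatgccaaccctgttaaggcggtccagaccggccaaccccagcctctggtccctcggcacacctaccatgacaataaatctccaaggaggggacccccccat

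ISRE letters lay in 5 of 8 windowed genes of the IFIT, Mx and other antiviral effectors, in 3 of 5 oligoadenylate synthetases, in 3 of 5 sensors and regulators of double-stranded RNA, and in 3 of 3 guanylate-binding proteins. They lay in 2 of 7 interferon regulatory factors with Stat2, in 1 of 2 ISG15 and ADP-ribosylation genes and in 1 of 2 antigen presentation genes. None lay in the 4 other interferon-induced genes with a window (0 of 4) or in the interferon receptors (0 of 4). The map of the windows shows the positions of both motifs. 

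**Figure D1:**
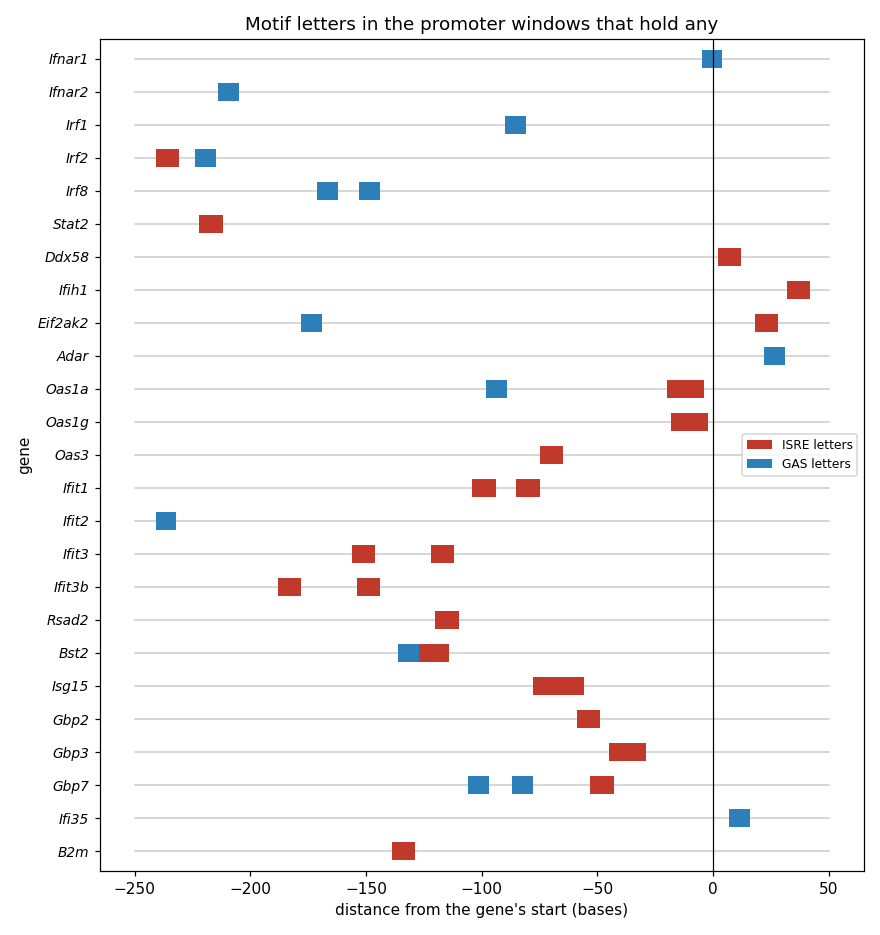
Positions of ISRE letters (red) and GAS letters (blue) in promoter windows, as distance in bases from the annotated start (0), 1 row for each window that holds any. The windows run from 250 bases before to 50 after the start, and overlapping ISRE letters stand as single long bars at Isg15, Bst2, Oas1a, Oas1g and Gbp3.

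Library totals lay between 9467851 and 11389479 counts, and levels are given as CPM, the counts divided by the TMM-scaled library total. Levels of different genes are not compared, since CPM is not corrected for gene length. The third AKI-PBS library stood apart from the other 2 on the third principal component of all genes (-44.1 against 28.3 and 20.6), and results that change without it are named below. A call said to be lost or gained without a library is that of the same fit with the library left out. Ptpn1 itself, the target of the siRNA, was at 80.9, 90.5 and 98.8 CPM in sham, 123, 148 and 170.4 in AKI-PBS and 106, 106 and 94.0 in AKI-PTPi@mEVs, and the log2 fold change (± standard error throughout) between the injured groups was -0.53 ± 0.14 (adjusted p = 0.00862). The 8 proximal tubule markers summed to 3273 to 12670 CPM across the libraries, so that the labelled tissue's own markers were present in each.

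After injury, 6 of 10 antiviral effector genes were lower than in sham, against 27.9% of all genes. By contrast, 3 of 4 interferon receptors were higher, against 27.8% of all genes. In whole tissue, fewer cells of a type and less RNA per cell cannot be told apart. Of the 49 tested genes, 21 fell (42.9%) and 6 rose (12.2%) in AKI-PBS against sham, by the quasi-likelihood test of edgeR, adjusted after Benjamini and Hochberg over all genes and called under 0.05. The 27 calls compare with 55.7% of all genes called in either direction. Among all 17036 genes 27.9% were called lower and 27.8% higher, so that the background was even and large. At 2-fold or more, 15 of the 49 were lower (30.6%, against 16.7% of all genes) and 2 were higher (4.08%, against 14.0%). The median log2 fold change of the 49 was -0.44, and that of all genes was 0.028. All 3 AKI-PBS libraries lay below all 3 sham libraries in 24 of the 49 (30.9% of all genes) and above them in 7 (31.2% of all genes).

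With the vesicles, 13 of the 49 genes were higher than in AKI-PBS (26.5%, against 25.4% of all genes) and 6 were lower (12.2%, against 25.8%), 19 in all against 51.1% of all genes. At 2-fold or more, 8 were higher (16.3%, against 13.4% of all genes) and 3 lower (6.12%, against 13.4%). The share called higher was near the background, and the share called lower was under it. The median log2 fold change was 0.23, against -0.025 over all genes. The libraries of the groups did not overlap in 17 genes in the higher direction (28.7% of all genes) and in 5 in the lower (29.2% of all genes). Scaling by library totals moved the median of all genes in this comparison from -0.025 to -0.13 and that of the 49 from 0.23 to 0.12. Both comparisons use the same AKI-PBS libraries, so that an error in those 3 libraries enters both with opposite signs.

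Zbp1, Oas1g and Ifi27l2a passed the filter on low counts only through sham, where each reached the minimum of 0.921 CPM in all 3 libraries. The filter itself thus favoured a difference from sham in these genes, so their calls add no support. Without them 18 of 46 genes were lower in AKI-PBS than in sham (39.1%) and 6 higher (13%), with a median of -0.40. Oas3 and Mx1 did not pass the filter, with 16, 8 and 8 counts and 19, 7 and 8 counts in sham, AKI-PBS and AKI-PTPi@mEVs, pooled over the libraries of each group.

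**Figure D2:**
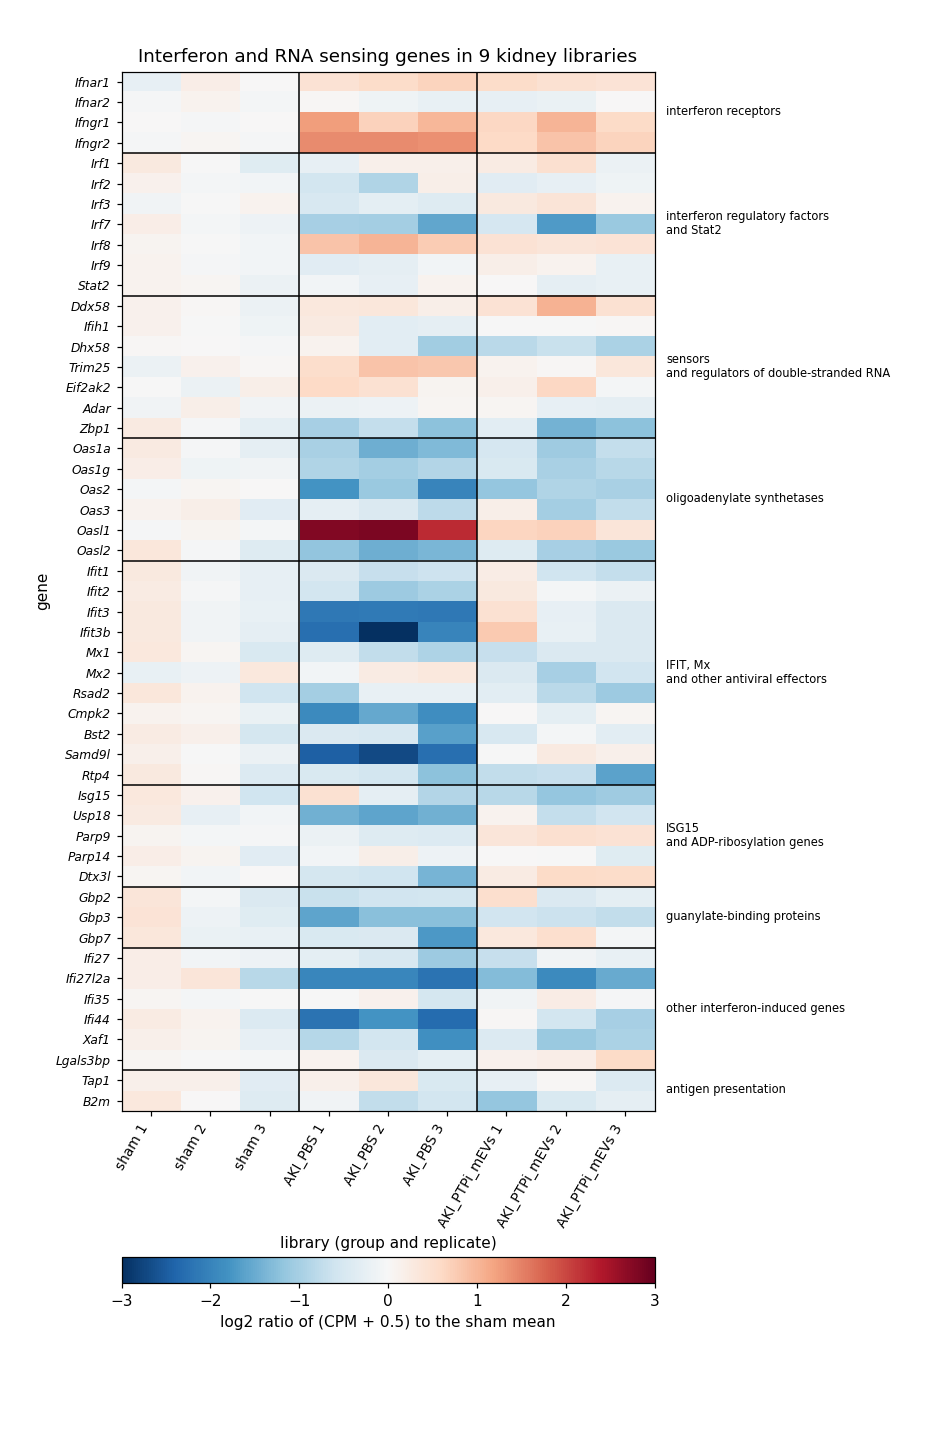
Level of each of the 51 genes (rows, grouped by role) in each of the 9 libraries (columns, grouped as sham, AKI-PBS and AKI-PTPi@mEVs), coloured as the log2 ratio of CPM + 0.5 to the sham mean + 0.5. The 3 AKI-PBS columns are lowest for Samd9l, Ifit3, Ifit3b and Ifi44 and highest for Oasl1, Ifngr2 and Trim25.

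Cell type markers moved as well. The 8 proximal tubule markers summed to 10170 to 12670 CPM in sham, 3273 to 5192 in AKI-PBS and 6914 to 11410 in AKI-PTPi@mEVs. Of the 8, 7 fell after injury (87.5%, against 27.9% of all genes). The 5 loop of Henle markers summed to 2298 to 2597, 1038 to 1573 and 1833 to 2142 CPM, and 4 of 5 fell (80.0%). These sums were lowest in AKI-PBS, as were Samd9l, Ifit3, Cmpk2 and Usp18. Their part in the result was not tested.

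Macrophage and monocyte markers, 12 genes, summed to 122 to 170 CPM in sham, 94.7 to 134 in AKI-PBS and 103 to 132 in AKI-PTPi@mEVs, and 3 of 10 tested fell after injury (30%, against 27.9% of all genes) and 1 rose. With the vesicles 4 of the 10 were called higher (40%, against 25.4% of all genes) and 1 lower. The log2 fold changes were positive in 4 and negative in 6, with a median of -0.18, so the list did not move as 1 group. C1qa, C1qb and C1qc were not called after injury (log2 fold change -0.15, -0.35 and 0.72). Their mean levels were 15.8, 20.6 and 5.85 CPM in AKI-PBS and 11.5, 18.9 and 2.81 in AKI-PTPi@mEVs. Cx3cr1, Adgre1 and Csf1r, named like the other markers in this paragraph after their values were seen, fell after injury (log2 fold change -4.01, -2.44 and -1.96) and were higher with the vesicles (3.95, 1.97 and 0.43), as was Lyz2 (0.72), while Cd68 rose after injury (2.28) and Mrc1 was lower with the vesicles (-1.27). Cx3cr1 and Adgre1 had 5 and 11 pooled counts in AKI-PBS, near the counting floor. Adgre1 also needed sham to pass the filter on low counts, so its call after injury adds no support. T and NK cell markers, 9 genes, summed to 4.98 to 6.70 CPM, 0.951 to 1.06 and 1.75 to 3.03. In that list Cd8a alone had enough counts to test. Ncr1 was at 0 in AKI-PBS, with 2 pooled counts in sham and 2 in AKI-PTPi@mEVs. Cd3d was at 0 in AKI-PTPi@mEVs, with 5 in sham and 2 in AKI-PBS, so that these zeros lie at the counting floor. Dendritic cell markers, 8 genes, summed to 14.9 to 21.9, 15.4 to 18.5 and 11.2 to 16.3 CPM. Xcr1 was at 0 in AKI-PBS, with 9 pooled counts in sham and 4 in AKI-PTPi@mEVs. Of the 5 tested, Clec9a, Cd209a and Itgax were lower after injury (60%, against 27.9% of all genes), with log2 fold changes of -1.31, -1.81 and -1.44. Clec9a and Cd209a needed sham to pass the filter on low counts, so their calls add no support. With the vesicles Itgax was higher (1.56) and Zbtb46 lower (-0.73). Neutrophil markers, 8 genes, summed to 0.508 to 1.02, 14.5 to 30.8 and 1.93 to 2.84 CPM, with S100a8 and Retnlg at 0 in sham. After injury 7 of 7 tested genes were higher (27.8% of all genes). Of these, S100a8, S100a9, Retnlg, Mmp8, Ngp and Cxcr2 reached the filter's minimum of 0.921 CPM only in AKI-PBS. The filter thus favoured a rise in these genes, so their calls add no support. B cell markers, 6 genes, summed to 11.38 to 18.88, 10.1 to 12.9 and 8.73 to 15.6 CPM, and the 8 endothelial markers to 436 to 561, 318 to 540 and 329 to 544 CPM. The neutrophil sums were highest in AKI-PBS, as were Irf8, Oasl1 and Ifngr2, and the T and NK cell sums were lowest there. The part of these cells in the interferon gene values was not tested.

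**Figure D3:**
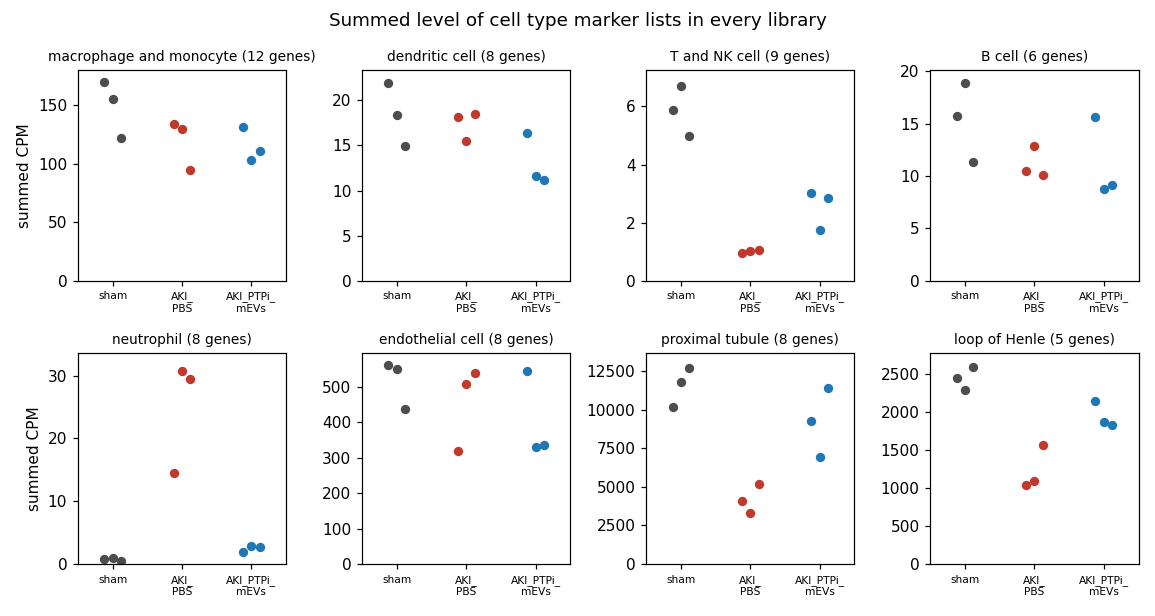
Summed level in CPM (linear axis from 0) of 8 cell type marker lists in each of the 9 libraries (dots, by group). The neutrophil sums are highest in AKI-PBS (14.5 to 30.8 CPM, against 0.508 to 1.02 in sham), and the proximal tubule sums are lowest there (3273 to 5192 CPM).

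Of the 4 interferon receptors, 3 rose after injury (75.0%, against 27.8% of all genes). Ifngr2, the signalling chain of the interferon gamma receptor, was at 42.4, 45.7 and 42.8 CPM in sham, 117, 117 and 113 in AKI-PBS and 66.7, 79.1 and 69.5 in AKI-PTPi@mEVs. The 3 groups were fully separate, with the vesicle group between the others. The log2 fold change was 1.41 ± 0.12 in AKI-PBS against sham (a 2.66-fold rise, adjusted p = 1.78e-06), -0.69 ± 0.12 (adjusted p = 0.000439) in AKI-PTPi@mEVs against AKI-PBS and 0.72 ± 0.12 (adjusted p = 0.0029) in AKI-PTPi@mEVs against sham. Ifngr1, the ligand-binding chain of the same receptor, was at 65.2, 62.5 and 65.1 CPM in sham, 153, 104 and 128 in AKI-PBS and 99.8, 129.9 and 95.4 in AKI-PTPi@mEVs. Every injured library was above every sham library, while the injured groups overlapped. Ifngr1 rose in AKI-PBS by 1.0 ± 0.16 (adjusted p = 0.00023) on the log2 scale and had -0.25 ± 0.16 (adjusted p = 0.218) between the injured groups, with a 95% interval of -0.64 to 0.15.

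Ifnar1, a chain of the type I interferon receptor, was at 35.6, 48.3 and 42.7 CPM in sham, 57.0, 62.2 and 67.1 in AKI-PBS and 62.3, 57.6 and 56.4 in AKI-PTPi@mEVs. It rose in AKI-PBS by a log2 fold change of 0.56 ± 0.14 (adjusted p = 0.00459), and the injured groups overlapped. Ifnar2, its partner chain, was at 34.2, 38.1 and 33.6 CPM in sham, 36.4, 32.4 and 30.1 in AKI-PBS and 29.9, 30.8 and 35.4 in AKI-PTPi@mEVs, and the groups overlapped in all 3 comparisons. The log2 fold change of Ifnar2 after injury was -0.099, with a 95% interval of -0.44 to 0.24.

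Among the interferon regulatory factors and Stat2, 1 of 7 rose after injury (14.3%, against 27.8% of all genes). Another 2 fell (28.6%, against 27.9%), which is near the background. Irf8, a factor of myeloid cells, was at 42.6, 39.7 and 37.5 CPM in sham, 73.0, 81.8 and 68.0 in AKI-PBS and 54.1, 51.6 and 53.0 in AKI-PTPi@mEVs, 3 separate groups with the vesicle group in the middle. Its log2 fold change was 0.90 ± 0.13 (adjusted p = 7.04e-05) after injury and -0.49 ± 0.12 (adjusted p = 0.00556) with the vesicles. Irf7, which amplifies type I interferon production, was at 26.1, 21.9 and 20.3 CPM in sham, 11.2, 10.9 and 7.33 in AKI-PBS and 15.97, 6.66 and 10.3 in AKI-PTPi@mEVs. Both injured groups were below sham, and they overlapped each other. Irf7 fell after injury, with a log2 fold change of -1.21 ± 0.28 (adjusted p = 0.00235), and had 0.17 with the vesicles (adjusted p = 0.627, 95% interval -0.51 to 0.86).

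Irf3, the factor that RIG-I and MDA5 signalling activates first, was at 142, 151 and 163 CPM in sham, 108, 124 and 116 in AKI-PBS and 187, 198 and 164 in AKI-PTPi@mEVs. It fell by 0.39 on the log2 scale after injury (SE 0.13, adjusted p = 0.0207) and rose by 0.66 ± 0.13 (adjusted p = 0.001) with the vesicles. The Irf3 call after injury was lost without sham replicate 2 or 3 or AKI-PBS replicate 1 (log2 fold change -0.41 to -0.34) and with scaling by library totals (-0.30), while the rise with the vesicles passed in every alternative. Irf1, Irf2, Irf9 and Stat2 passed the test in none of the 3 comparisons. Irf1, an early activator, had a log2 fold change of 0.036 after injury (95% interval -0.50 to 0.57). Irf9, the DNA-binding part of the ISRE complex, was at 33.5, 30.6 and 29.3 CPM in sham, 24.6, 25.8 and 29.4 in AKI-PBS and 35.0, 33.4 and 26.4 in AKI-PTPi@mEVs. The log2 fold changes of Stat2 after injury and with the vesicles were -0.069 and -0.085, with 95% intervals of -0.44 to 0.30 and -0.46 to 0.29. Irf2, a repressor, was lower in AKI-PBS than in sham without AKI-PBS replicate 3 (log2 fold change -0.74) and higher in AKI-PTPi@mEVs than in AKI-PBS without AKI-PBS replicate 3 (log2 fold change 0.50).

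Of the 7 sensors and regulators of double-stranded RNA, 1 rose and 1 fell after injury (14.3% each, against 27.8% and 27.9% of all genes). With the vesicles 1 was lower (14.3%, against 25.8%). Trim25, a ubiquitin ligase that activates RIG-I, was at 56.7, 69.8 and 65.8 CPM in sham, 92.2, 117 and 113 in AKI-PBS and 68.5, 66.2 and 81.9 in AKI-PTPi@mEVs. AKI-PBS lay above both other groups, which overlapped. On the log2 scale the change of Trim25 was 0.74 ± 0.14 (adjusted p = 0.000808) after injury and -0.57 ± 0.14 (adjusted p = 0.00522) with the vesicles. RIG-I itself (Ddx58) was at 27.9, 26.3 and 22.4 CPM in sham, 31.8, 32.2 and 29.0 in AKI-PBS and 34.6, 52.9 and 35.4 in AKI-PTPi@mEVs. The second vesicle library was the highest of the 9. With the vesicles Ddx58 had a log2 fold change of 0.40 ± 0.17 (adjusted p = 0.0721), not called, and it was called without AKI-PTPi@mEVs replicate 1 (log2 fold change 0.52) and with no filter on low counts (0.45).

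Zbp1, a sensor of left-handed Z-form nucleic acid, was at 2.16, 1.67 and 1.32 CPM in sham, 0.605, 0.858 and 0.442 in AKI-PBS and 1.28, 0.328 and 0.440 in AKI-PTPi@mEVs. It fell after injury, with a log2 fold change of -1.42 ± 0.47 (adjusted p = 0.0217), a call that was lost without sham replicate 1 or 2 or AKI-PBS replicate 1 or 3 (log2 fold change -1.45 to -1.22). Dhx58 (LGP2), a regulator of RIG-I and MDA5, was at 3.53, 3.44 and 3.35 CPM in sham, 3.72, 2.66 and 1.41 in AKI-PBS and 1.74, 1.97 and 1.54 in AKI-PTPi@mEVs. The AKI-PBS libraries were spread across the range of the other groups, and Dhx58 was called lower with the vesicles only without AKI-PBS replicate 3 (log2 fold change -0.86). MDA5 (Ifih1), the kinase PKR (Eif2ak2), which halts translation on double-stranded RNA, and the editing enzyme ADAR1 (Adar) passed in no comparison. Their log2 fold changes with the vesicles were 0.084 (-0.38 to 0.55), -0.14 (-0.64 to 0.36) and -0.047 (-0.47 to 0.37), with 95% intervals in parentheses. Eif2ak2 was called higher after injury without AKI-PBS replicate 3 (log2 fold change 0.55).

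The oligoadenylate synthetases, which make the signal that activates RNase L, split by gene. Oasl1, a family member that binds RNA and represses translation of Irf7, was at 3.92, 4.28 and 3.86 CPM in sham, 30.2, 31.7 and 20.7 in AKI-PBS and 6.51, 6.77 and 5.28 in AKI-PTPi@mEVs. It rose 6.83-fold after injury, a log2 fold change of 2.77 ± 0.22 (adjusted p = 1.01e-06), and was lower with the vesicles, with -2.15 ± 0.21 (adjusted p = 7.35e-06). All 3 AKI-PBS libraries were far above the 6 others. Oasl2, its neighbour in the genome, was at 17.6, 13.5 and 10.6 CPM in sham, 5.88, 4.72 and 5.04 in AKI-PBS and 10.6, 6.77 and 6.16 in AKI-PTPi@mEVs, with a log2 fold change of -1.41 ± 0.26 (adjusted p = 0.000579) after injury. Its AKI-PBS libraries were the lowest 3 of the 9, opposite to Oasl1.

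Oas2 was at 3.72, 4.09 and 3.96 CPM in sham, 0.778, 1.54 and 0.619 in AKI-PBS and 1.47, 1.86 and 1.76 in AKI-PTPi@mEVs, and its log2 fold change after injury was -1.99 ± 0.34 (adjusted p = 0.000323). Oas1a was at 6.57, 5.21 and 4.37 CPM in sham, 2.51, 1.63 and 1.86 in AKI-PBS and 3.67, 2.29 and 3.08 in AKI-PTPi@mEVs, a log2 fold change of -1.43 ± 0.29 (adjusted p = 0.0012) after injury. The group mean of both was lowest in AKI-PBS. Oas1g followed with -1.41 ± 0.38 (adjusted p = 0.00638), but 57.6% of the 50-base stretches of Oas1a transcripts also occur in another gene, most of them in Oas1g, so that reads could be split between these copies. With the vesicles, Oas1a (0.60), Oas1g (0.36), Oas2 (0.77) and Oasl2 (0.59) were not called, and Oas2 was called without AKI-PBS replicate 2 (log2 fold change 1.26).

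Of the 10 tested antiviral effectors, 6 fell after injury, against 27.9% of all genes. With the vesicles 5 were higher and 1 lower, against 25.4% and 25.8% of all genes. Samd9l, an interferon-induced restriction factor that blocks translation, was at 186, 166 and 146 CPM in sham, 30.1, 25.1 and 34.0 in AKI-PBS and 164, 201 and 185 in AKI-PTPi@mEVs. The AKI-PBS libraries were far below the other 6, which overlapped. Samd9l had log2 fold changes of -2.48 ± 0.16 (adjusted p = 2.59e-07) after injury and 2.62 ± 0.16 (adjusted p = 3.6e-07) with the vesicles, a 6.16-fold rise. Between AKI-PTPi@mEVs and sham it was 0.14, with a 95% interval of -0.22 to 0.50.

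Ifit3, which binds other IFIT proteins on foreign RNA, was at 56.6, 42.8 and 39.6 CPM in sham, 10.03, 10.2 and 10.2 in AKI-PBS and 63.9, 39.0 and 34.4 in AKI-PTPi@mEVs. The 3 AKI-PBS libraries were almost equal, and the spread in the vesicle group was wide. Its log2 fold change was -2.19 ± 0.23 (adjusted p = 7.68e-06) after injury and 2.18 ± 0.23 (adjusted p = 1.28e-05) with the vesicles, and -0.016 between AKI-PTPi@mEVs and sham (95% interval -0.54 to 0.51). Ifit3b, the copy with the shared promoter run printed above, was at 15.2, 11.44 and 10.2 CPM in sham, 2.16, 1.11 and 2.74 in AKI-PBS and 21.7, 10.48 and 8.90 in AKI-PTPi@mEVs. Its AKI-PBS libraries were again below the other 6. The log2 fold changes of Ifit3b were -2.61 ± 0.39 (adjusted p = 0.000117) and 2.77 ± 0.39 (adjusted p = 0.000101), but 51.2% of the 50-base stretches of Ifit3 also occur in another gene, so that the 2 are not independent counts.

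Cmpk2, a mitochondrial nucleotide kinase, was at 22.9, 22.2 and 18.5 CPM in sham, 5.27, 7.03 and 5.48 in AKI-PBS and 21.4, 17.1 and 21.98 in AKI-PTPi@mEVs, with log2 fold changes of -1.84 ± 0.19 (adjusted p = 7.2e-06) after injury and 1.76 ± 0.19 (adjusted p = 1.5e-05) with the vesicles. Sham and the vesicle group overlapped, and both were above AKI-PBS. Ifit2, another IFIT protein, had smaller changes of -0.87 ± 0.21 (adjusted p = 0.00319) and 0.91 ± 0.21 (adjusted p = 0.00277). Rsad2 (viperin), which lies beside Cmpk2 in the genome, was at 38.8, 32.5 and 19.9 CPM in sham, 14.7, 26.1 and 25.98 in AKI-PBS and 24.3, 17.0 and 14.0 in AKI-PTPi@mEVs. Its groups overlapped, and its log2 fold change after injury was -0.45 (adjusted p = 0.187), called with no filter on low counts (-0.49). Ifit1, which binds RNA lacking a cap methyl group, had -0.61 ± 0.27 (adjusted p = 0.0693) after injury, was not called, and was called without AKI-PTPi@mEVs replicate 1 (log2 fold change -0.62) and with no filter on low counts (-0.65), a replicate block (-0.59) or a fit to the 2 groups alone (-0.61).

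Mx2, a dynamin-like antiviral protein, went the other way, with 1.67, 1.77 and 2.64 CPM in sham, 1.90, 2.49 and 2.65 in AKI-PBS and 1.38, 0.764 and 1.21 in AKI-PTPi@mEVs. The vesicle libraries were the lowest 3, with a log2 fold change against AKI-PBS of -1.05 ± 0.35 (adjusted p = 0.022). That call was lost without AKI-PBS replicate 2 or 3 or AKI-PTPi@mEVs replicate 2 or 3 (log2 fold change -1.09 to -0.83) and with no filter on low counts (-1.01). Bst2 (tetherin), which holds budding virus at the cell surface, fell after injury (-0.78 ± 0.30, adjusted p = 0.0418) with overlapping groups, and the call was lost without sham replicate 1 or 2, AKI-PBS replicate 3 or AKI-PTPi@mEVs replicate 3 (log2 fold change -0.79 to -0.47) and with scaling by library totals (-0.70) or a fit to the 2 groups alone (-0.78). Rtp4, a chaperone of receptors, had -0.75 ± 0.30 (adjusted p = 0.052) after injury and was called lower without sham replicate 3, AKI-PBS replicate 1 or AKI-PTPi@mEVs replicate 3 (log2 fold change -0.93 to -0.76) and with relative log expression size factors (-0.75), DESeq2 (-0.75), no filter on low counts (-0.78), a replicate block (-0.76) or a fit to the 2 groups alone (-0.75).

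**Figure D4:**
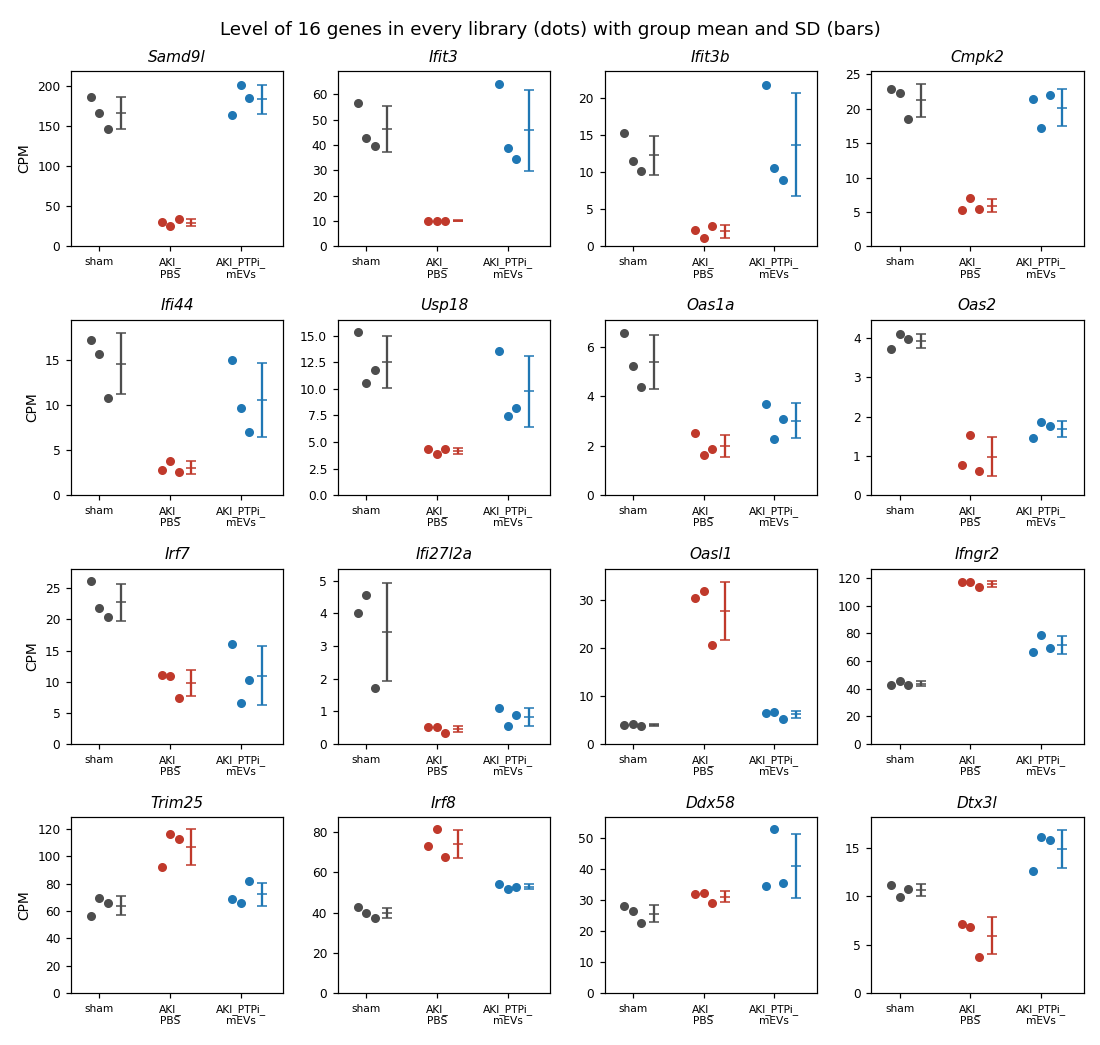
Level in CPM (linear axis from 0) of 16 genes in each of the 9 libraries (dots, by group), with the mean and SD of each group as a bar. Samd9l, Ifit3 and Cmpk2 are lowest in the 3 AKI-PBS libraries, Oasl1 and Ifngr2 are highest there, and Irf7 is lower than sham in both injured groups.

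Among the ISG15 and ADP-ribosylation genes, 2 of 5 fell after injury, against 27.9% of all genes. With the vesicles 3 were higher and 1 lower, against 25.4% and 25.8% of all genes. Isg15, a ubiquitin-like protein that interferon induces, was at 4.51, 3.91 and 2.13 CPM in sham, 5.01, 2.83 and 1.68 in AKI-PBS and 1.74, 1.31 and 1.43 in AKI-PTPi@mEVs. Sham and AKI-PBS overlapped and were spread 2-fold or more within each group, while the vesicle libraries were close together near the lowest of these values. The log2 fold change with the vesicles was -1.07 ± 0.42 (adjusted p = 0.0486), in the direction opposite to the 3 others of its role group that were called, and the call was lost without sham replicate 1 or 2, AKI-PBS replicate 1 or 2 or AKI-PTPi@mEVs replicate 1, 2 or 3 (log2 fold change -1.19 to -0.58) and with a fit to the 2 groups alone (-1.07). Usp18, the protease that removes ISG15 and restrains the type I interferon receptor, was at 15.3, 10.51 and 11.8 CPM in sham, 4.32, 3.86 and 4.33 in AKI-PBS and 13.6, 7.42 and 8.24 in AKI-PTPi@mEVs. AKI-PBS lay below the other groups. On the log2 scale Usp18 changed by -1.58 ± 0.26 (adjusted p = 0.000256) after injury and 1.23 ± 0.27 (adjusted p = 0.00194) with the vesicles.

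Dtx3l and Parp9 form a complex that ubiquitinates and ADP-ribosylates its targets, and their genes share a start region. Of the 50-base stretches of Dtx3l transcripts, 8.09% also occur in another gene, so that a part of its reads is uncertain. Dtx3l was at 11.2, 9.95 and 10.8 CPM in sham, 7.17, 6.86 and 3.71 in AKI-PBS and 12.7, 16.2 and 15.8 in AKI-PTPi@mEVs. It fell after injury (-0.84 ± 0.24, adjusted p = 0.0105) and was higher with the vesicles (1.33 ± 0.24, adjusted p = 0.000664). Parp9 was at 17.9, 16.1 and 16.6 CPM in sham, 14.9, 12.7 and 12.6 in AKI-PBS and 21.8, 23.6 and 23.1 in AKI-PTPi@mEVs. Its vesicle libraries were above all others. Parp9 was higher with the vesicles by 0.77 ± 0.15 (adjusted p = 0.00118), and its difference after injury, -0.33 ± 0.15 (adjusted p = 0.0831), was called only without AKI-PBS replicate 1 (log2 fold change -0.42). Parp14 passed in none of the comparisons, with log2 fold changes of -0.009 after injury (-0.54 to 0.53) and -0.10 with the vesicles (-0.64 to 0.43), 95% intervals in parentheses.

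The guanylate-binding proteins, large GTPases induced by interferon gamma, were lower after injury in 2 of 3 (66.7%, against 27.9% of all genes). They were higher with the vesicles in 2 of 3 (66.7%, against 25.4%). Gbp3 was at 15.2, 10.2 and 8.74 CPM in sham, 3.46, 4.46 and 4.51 in AKI-PBS and 7.52, 7.10 and 6.59 in AKI-PTPi@mEVs, 3 separate groups. Its log2 fold change was -1.46 ± 0.25 (adjusted p = 0.000306) after injury and 0.77 ± 0.25 (adjusted p = 0.0213) with the vesicles, and the second call was lost without AKI-PBS replicate 1 or AKI-PTPi@mEVs replicate 1 (log2 fold change 0.67 to 0.74) and with scaling by library totals (0.67). Gbp7 was at 25.97, 17.5 and 17.4 CPM in sham, 14.6, 14.8 and 5.83 in AKI-PBS and 25.5, 29.1 and 19.6 in AKI-PTPi@mEVs. The third AKI-PBS library was the lowest by far. The Gbp7 fall after injury (-0.78 ± 0.30, adjusted p = 0.0423) was lost without sham replicate 1 or 2, AKI-PBS replicate 3 or AKI-PTPi@mEVs replicate 1 (log2 fold change -0.89 to -0.46) and with scaling by library totals (-0.70) or a fit to the 2 groups alone (-0.78). With the vesicles Gbp7 was higher by 1.07 ± 0.30 (adjusted p = 0.0103), while 12.7% of its 50-base stretches also occur in another gene. Gbp2 was at 10.8, 7.91 and 5.99 CPM in sham, 5.01, 5.32 and 5.48 in AKI-PBS and 11.8, 6.004 and 6.59 in AKI-PTPi@mEVs. Its AKI-PBS libraries were below all others, but neither -0.64 ± 0.29 (adjusted p = 0.0798) after injury nor 0.64 ± 0.29 (adjusted p = 0.0885) with the vesicles was called. Gbp2 was called lower after injury without sham replicate 3 or AKI-PTPi@mEVs replicate 1 (log2 fold change -0.83 to -0.65) and with no filter on low counts (-0.68) and higher with the vesicles without AKI-PTPi@mEVs replicate 2 (log2 fold change 0.83) and with no filter on low counts (0.68).

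Of the 6 other interferon-induced genes, 4 fell after injury (66.7%, against 27.9% of all genes) and 2 were higher with the vesicles (33.3%, against 25.4%). Ifi44, an interferon-induced antiviral protein, was at 17.2, 15.7 and 10.8 CPM in sham, 2.77, 3.86 and 2.56 in AKI-PBS and 15.1, 9.72 and 7.04 in AKI-PTPi@mEVs. AKI-PBS lay below the other groups, which overlapped. Ifi44 changed on the log2 scale by -2.25 ± 0.31 (adjusted p = 6.14e-05) after injury and 1.79 ± 0.31 (adjusted p = 0.000454) with the vesicles. Ifi27l2a, a small interferon-induced protein, was at 4.02, 4.56 and 1.73 CPM in sham, 0.519, 0.515 and 0.353 in AKI-PBS and 1.10, 0.546 and 0.879 in AKI-PTPi@mEVs. Both injured groups were below sham, with a log2 fold change of -2.86 ± 0.45 (adjusted p = 0.000168) in AKI-PBS. It is 1 of the 3 genes that needed sham to pass the filter.

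Xaf1, which promotes cell death, was at 6.66, 6.33 and 4.98 CPM in sham, 3.11, 3.94 and 1.32 in AKI-PBS and 4.41, 2.51 and 2.86 in AKI-PTPi@mEVs, and fell after injury (-1.09 ± 0.35, adjusted p = 0.0183). That call was lost without sham replicate 1 or 2 (log2 fold change -1.07 to -1.02). Ifi27 fell as well (-0.59 ± 0.20, adjusted p = 0.0261), and the call was lost without sham replicate 1 or AKI-PBS replicate 3 (log2 fold change -0.49 to -0.39) and with scaling by library totals (-0.51). Lgals3bp, a secreted glycoprotein, was at 81.2, 76.8 and 74.5 CPM in sham, 83.8, 56.9 and 63.3 in AKI-PBS and 85.0, 88.9 and 115 in AKI-PTPi@mEVs. Every vesicle library was above every other library, by 0.50 ± 0.17 (adjusted p = 0.0219) against AKI-PBS, but the call was lost without AKI-PBS replicate 2 or 3 or AKI-PTPi@mEVs replicate 3 (log2 fold change 0.37 to 0.46) and with scaling by library totals (0.39). Ifi35 passed in none of the comparisons, with a log2 fold change of -0.10 after injury (95% interval -0.51 to 0.30).

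The antigen presentation genes did not pass in any comparison. B2m, the light chain of class I molecules, was at 243, 196 and 149 CPM in sham, 181, 117 and 135 in AKI-PBS and 87.8, 143 and 164 in AKI-PTPi@mEVs. The groups overlapped widely. Its log2 fold change was -0.44 after injury (95% interval -1.03 to 0.14). Tap1, which carries peptides into the endoplasmic reticulum, was at 15.7, 15.6 and 11.0 CPM in sham, 15.7, 17.8 and 10.1 in AKI-PBS and 11.8, 14.4 and 10.6 in AKI-PTPi@mEVs, and its log2 fold change was 0.046 (95% interval -0.53 to 0.62). B2m was called lower after injury with no filter on low counts (-0.48).

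**Figure D5:**
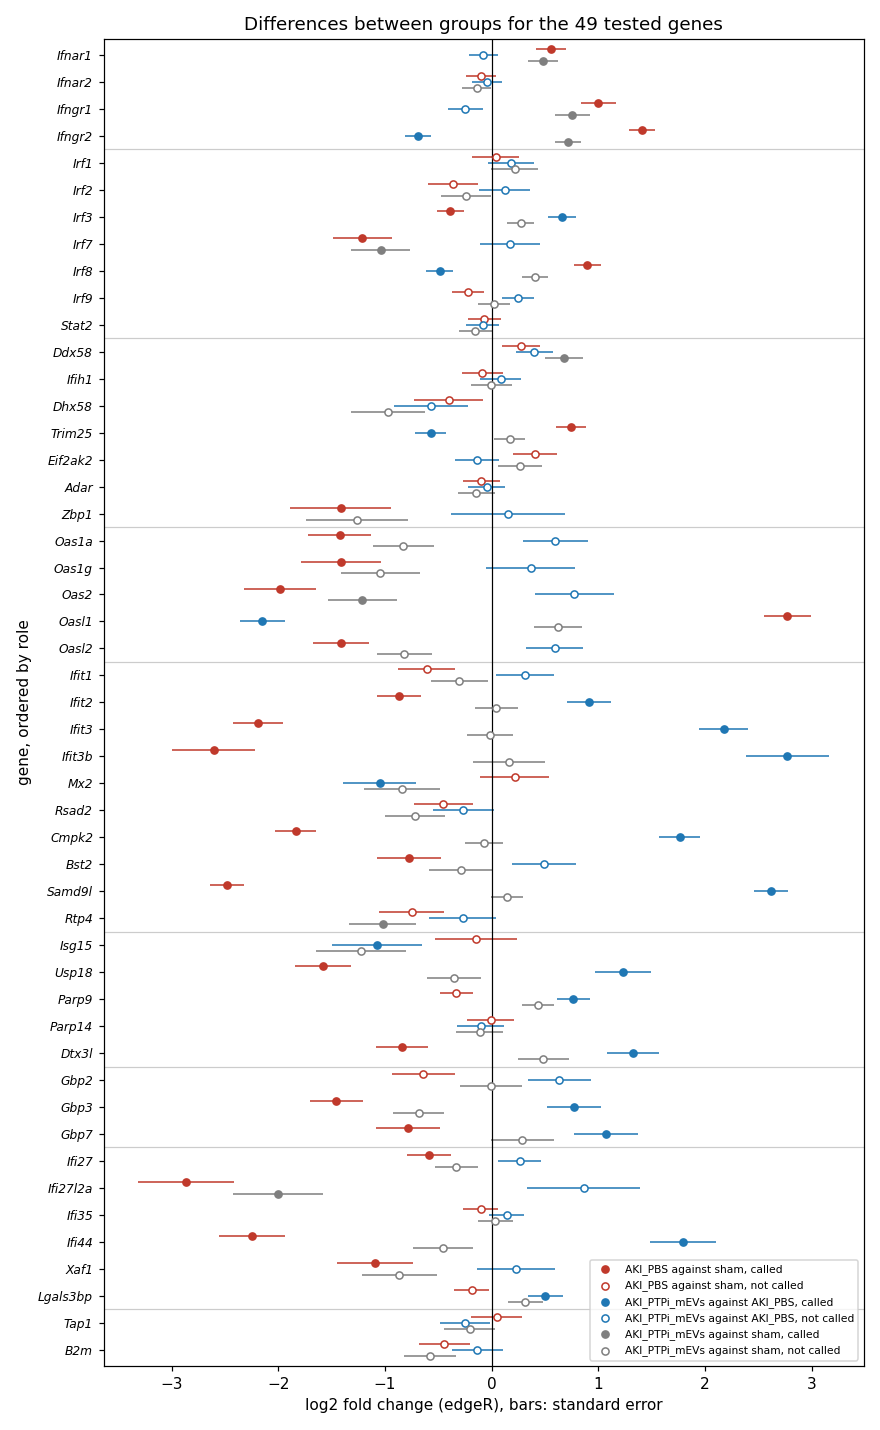
Log2 fold change of each of the 49 tested genes in the 3 comparisons (colours), with bars for the standard error, filled points for genes with an adjusted p under 0.05 and open points for the others. Samd9l (-2.48 after injury and 2.62 with the vesicles), Ifit3 (-2.19 and 2.18) and Oasl1 (2.77 and -2.15) stand far from 0 on both sides, and the comparisons share libraries.

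Against sham, the kidneys given the vesicles differed in 8 of the 49 genes. Ifngr2, Ifngr1, Ifnar1 and Ddx58 were higher (8.16%, against 7.43% of all genes), and Ifi27l2a, Irf7, Oas2 and Rtp4 were lower (8.16%, against 5.79% of all genes), where 13.2% of all genes were called. Ifi27l2a needed sham to pass the filter on low counts, and without the 3 genes that did, 3 of 46 were lower (6.52%). At 2-fold or more 0 were higher (2.49% of all genes) and 4 lower (3.30% of all genes). The groups did not overlap in 10 genes above sham (21.2% of all genes) and 14 below (18.1% of all genes). The log2 fold changes of the higher genes were 0.72 ± 0.12 (adjusted p = 0.0029) for Ifngr2, 0.75 ± 0.16 (adjusted p = 0.0104) for Ifngr1, 0.68 ± 0.18 (adjusted p = 0.0242) for Ddx58 and 0.48 ± 0.14 (adjusted p = 0.0404) for Ifnar1. The lower genes had -2.00 ± 0.42 (adjusted p = 0.00907) for Ifi27l2a, -1.21 ± 0.33 (adjusted p = 0.0276) for Oas2, -1.04 ± 0.28 (adjusted p = 0.0258) for Irf7 and -1.02 ± 0.31 (adjusted p = 0.0476) for Rtp4. Ifngr2 was the sole gene of the 8 whose call held in every alternative run.

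The other 7 calls against sham depended on single libraries. Ifngr1 lost its call without sham replicate 2 or AKI-PTPi@mEVs replicate 2 (log2 fold change 0.59 to 0.74). Ifnar1 lost it without sham replicate 1, 2 or 3, AKI-PBS replicate 2 or AKI-PTPi@mEVs replicate 1, 2 or 3 (log2 fold change 0.37 to 0.59) and with a replicate block (0.49). Ddx58 lost it without sham replicate 1, 2 or 3 or AKI-PTPi@mEVs replicate 2 (log2 fold change 0.44 to 0.75). Of the lower genes, Ifi27l2a lost its call without sham replicate 2 or AKI-PTPi@mEVs replicate 2 (log2 fold change -1.79 to -1.74), and Irf7 lost it without sham replicate 1 or 2 or AKI-PTPi@mEVs replicate 2 or 3 (log2 fold change -1.07 to -0.80). Oas2 lost it without sham replicate 1, 2 or 3 or AKI-PTPi@mEVs replicate 1, 2 or 3 (log2 fold change -1.29 to -1.11). Rtp4 lost it without sham replicate 1 or 2, AKI-PBS replicate 2 or AKI-PTPi@mEVs replicate 1, 2 or 3 (log2 fold change -1.19 to -0.76) and with scaling by library totals (-1.05). Genes called against sham without AKI-PBS replicate 3, and not with all libraries, were Irf8 (0.41), Dhx58 (-0.97), Oasl1 (0.63), Oasl2 (-0.81), Isg15 (-1.22), Parp9 (0.44) and Xaf1 (-0.86), with log2 fold changes in parentheses. Zbp1 (-2.12) and Oasl2 (-1.10) were called without AKI-PTPi@mEVs replicate 1, Oasl2 (-0.98) without sham replicate 3, Isg15 (-1.22) and Irf8 (0.41) without AKI-PBS replicate 1, and Irf8 (0.41) without AKI-PBS replicate 2. The number of genes called ran from 1 to 7 higher and from 0 to 8 lower when single libraries were left out. The lowest counts came without sham replicate 2 or AKI-PTPi@mEVs replicate 2 and the highest without AKI-PBS replicate 3.

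The ISRE letters were set beside these calls as a description. Of the 17 tested genes with the letters, 0 rose and 7 fell after injury, with a median log2 fold change of -0.61, where 27.8% of all genes rose and 27.9% fell. The 7 include Oas1g, which passed the filter on low counts only through sham. Of the 22 tested genes whose windows lack them, 6 rose and 9 fell, with a median of -0.15. All 6 genes that rose after injury, Ifngr1, Ifngr2, Ifnar1, Irf8, Trim25 and Oasl1, are among those without the letters. With the vesicles, 4 of the 17 were higher and 1 lower, against 7 higher and 4 lower of the 22, where 25.4% of all genes were higher and 25.8% lower. The windows of Samd9l, Cmpk2, Ifi44 and Dtx3l do not hold the letters.

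The messengers of the interferon genes that were listed were barely counted. Of 10 ligand genes none had enough counts to test. Interferon beta (Ifnb1) had 1 count over all 9 libraries, in AKI-PBS, and interferon gamma (Ifng) had 0, which allows up to 0.0317 CPM over the 9 libraries. Ifna1, Ifna4, Ifna5 and Ifnl2 had 0 counts, and Ifna2, Ifne and Ifnl3 had 1 count each. Ifnk had 12, 16 and 7 counts in sham, AKI-PBS and AKI-PTPi@mEVs. Apart from Ifnk, the listed ligand transcripts were thus at the limit of detection at this depth, and interferon genes outside the list were not looked at. That limit covers counting error only, since reads without molecular identifiers are not independent molecules.

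Among 106 further genes of the pathway, chosen as lists of ligands, signalling from the receptors, signalling from the sensors, class I presentation and other interferon-induced genes, 88 were tested. After injury 19 rose (21.6%, against 27.8% of all genes) and 30 fell (34.1%, against 27.9%). With the vesicles 20 were higher (22.7%, against 25.4% of all genes) and 19 lower (21.6%, against 25.8%), both near the background. Against sham 11 were higher (12.5%, against 7.43% of all genes) and 12 lower (13.6%, against 5.79%). Of 36 other interferon-induced genes 4 rose (11.1%, against 27.8% of all genes) and 14 fell (38.9%, against 27.9%) after injury. Their median log2 fold change was -0.39. Of 16 receptor signalling genes 6 rose (37.5%) and 5 fell (31.2%), against the same shares of all genes. Of 22 sensor signalling genes 6 rose and 6 fell (27.3% each), which is near the background. Igtp, an interferon-induced GTPase, was at 27.5, 30.2 and 31.1 CPM in sham, 13.2, 9.09 and 8.22 in AKI-PBS and 24.5, 28.5 and 26.9 in AKI-PTPi@mEVs. AKI-PBS was below the other groups, with a log2 fold change of -1.54 ± 0.19 (adjusted p = 2.18e-05) against sham. Gbp4 had -1.96 ± 0.27 (adjusted p = 5.97e-05) after injury and 0.82 ± 0.28 (adjusted p = 0.027) with the vesicles, the latter lost without AKI-PBS replicate 2 or 3 or AKI-PTPi@mEVs replicate 1 (log2 fold change 0.68 to 0.80) and with scaling by library totals (0.71). Pnpt1, a mitochondrial exoribonuclease, had -0.59 ± 0.14 (adjusted p = 0.0032) and 1.23 ± 0.14 (adjusted p = 2.1e-05).

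Socs3, an inhibitor of cytokine receptor signalling, had a log2 fold change of 5.10 ± 0.27 (adjusted p = 1.66e-07) after injury and -1.87 ± 0.22 (adjusted p = 2.38e-05) with the vesicles. Mavs, the adaptor of RIG-I and MDA5, was at 104, 118 and 118 CPM in sham, 96.7, 67.0 and 86.1 in AKI-PBS and 159, 188 and 162 in AKI-PTPi@mEVs. It was highest in the vesicle group, by 1.03 ± 0.15 (adjusted p = 0.00014) against AKI-PBS and 0.58 ± 0.15 (adjusted p = 0.0232) against sham. The Mavs difference after injury, -0.44 ± 0.15 (adjusted p = 0.0233), was lost without sham replicate 2 or 3 or AKI-PBS replicate 2 (log2 fold change -0.42 to -0.31), and that against sham without sham replicate 1 or 2 or AKI-PTPi@mEVs replicate 2 (log2 fold change 0.49 to 0.62).

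Rnf135 (Riplet), a ubiquitin ligase of RIG-I, had -0.89 ± 0.16 (adjusted p = 0.000546) after injury and 1.30 ± 0.16 (adjusted p = 4.12e-05) with the vesicles. Zc3hav1 (ZAP), which binds CpG-rich viral RNA, had 1.48 ± 0.20 (adjusted p = 5.84e-05) and -1.26 ± 0.20 (adjusted p = 0.000253), and Traf6, a signalling ligase, had 1.26 ± 0.16 (adjusted p = 3.85e-05) and -0.91 ± 0.16 (adjusted p = 0.000553). These were the reverse of Rnf135 in both comparisons. Tlr3, the endosomal sensor of double-stranded RNA, was at 7.84, 6.05 and 5.79 CPM in sham, 7.43, 7.55 and 7.69 in AKI-PBS and 9.27, 7.10 and 6.16 in AKI-PTPi@mEVs, and its log2 fold change with the vesicles was -0.005 (95% interval -0.55 to 0.54). Tlr7, a sensor of single-stranded RNA, had 27, 13 and 24 counts in the groups and was not tested. Cxcl10, a chemokine that interferon and NF-kappaB induce, was at 2.65, 1.58 and 1.73 CPM in sham, 7.78, 5.83 and 8.48 in AKI-PBS and 4.86, 6.77 and 7.47 in AKI-PTPi@mEVs. Both injured groups were above sham, by 1.89 ± 0.29 (adjusted p = 0.000147) and 1.67 ± 0.29 (adjusted p = 0.00356).

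Of the 14 class I presentation genes, 3 rose (21.4%, against 27.8% of all genes) and 5 fell (35.7%, against 27.9%) after injury. With the vesicles 4 were higher (28.6%, against 25.4%) and 2 lower (14.3%, against 25.8%). H2-K1, a class I heavy chain, rose after injury by 0.90 ± 0.14 (adjusted p = 0.000163) and was lower with the vesicles (-0.58 ± 0.14, adjusted p = 0.00393). Calr and Pdia3, chaperones of the endoplasmic reticulum that load peptide onto class I molecules and also serve other proteins, had -0.82 ± 0.14 (adjusted p = 0.000348) and -0.62 ± 0.15 (adjusted p = 0.00302) after injury and 1.40 ± 0.14 (adjusted p = 1.04e-05) and 1.13 ± 0.15 (adjusted p = 5.7e-05) with the vesicles. The heavy chains did not move as 1 group. H2-D1 and H2-T23, named after their values were seen, had 0.89 ± 0.16 (adjusted p = 0.000494) and -0.73 ± 0.17 (adjusted p = 0.00341) after injury. Heavy-chain genes are near-identical in parts, so that the split of reads among them is uncertain.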

How the data were processed

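RNA of 9 mouse kidney libraries was sequenced. The deposited values are whole-number counts per gene, made by the authors with STAR and HTSeq (no versions stated) per the submitters' processing notes. These name a human build, GRCh38.p14, while the identifiers are mouse, so the build was not settled. The sources used here do not state strand or filters, so reads of antisense or overlapping genes cannot be assigned to 1 of them. Per the labels' protocols, 100 ng of total RNA entered a Tn5-based kit. Totals were 9467851 to 11389479 counts (ratio 1.20), and their size limits the precision of low genes. Of 56923 identifiers 52073 had a symbol, and all 170 list names were matched.

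edgeR 4.0.16 (R 4.3.3) was fitted to the counts after its filterByExpr step (17036 genes left), with TMM factors, glmQLFit (robust) with a mean per group over all 9 libraries (6 residual degrees of freedom) and glmQLFTest, with Benjamini-Hochberg adjustment over all genes and calls at an adjusted p under 0.05. Standard errors (±) are the log2 fold change divided by the square root of F. The fit was tested on simulated counts. The alternatives were DESeq2 1.42.0, scaling by library totals or by relative log expression, no filter, a stricter filter (at least 1 CPM in 3 libraries and 100 counts in all), a replicate block, a fit to 2 groups, an adjusted p under 0.01, and leaving out each library. The chi-square test found no duplicate libraries.

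The members and lists were chosen with earlier results of these data known. Values by library are given for up to 4 genes of each role group with the smallest adjusted p and for genes called opposite to most of their role group; of the pathway lists, Ifnb1, Ifng, Mavs, Tlr3, Tlr7, Cxcl10 and up to 3 genes a list with the smallest adjusted p were named, with Ptpn1; 1 gene that this rule names is not reported here. Rsad2 was given by library outside this rule. Promoters are from RefSeq (GRCm38.p6), and shared 50-base stretches were counted over GENCODE transcripts; neither needs the build of the counts.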

Additional observations from a re-analysis of the deposited data

How the results depend on the processing

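No called gene reversed its direction under any alternative run. Of the calls, 20 of 27 after injury, 14 of 19 with the vesicles and 1 of 8 against sham passed in every alternative that gave a value for the gene (17, or 16 for Oas1g, which the stricter filter left out). The counts after injury and with the vesicles stayed within 1.5 times of 6 higher and 21 lower and of 13 higher and 6 lower. Leaving out 1 library gave 6 to 7 higher and 16 to 22 lower after injury, and 12 to 14 higher and 4 to 6 lower with the vesicles. In AKI-PTPi@mEVs against sham, where 4 genes were higher and 4 lower, leaving out 1 library gave 1 to 7 higher and 0 to 8 lower. At an adjusted p under 0.01 there were 1 higher and 1 lower, with no filter on low counts 8 lower and in a fit to the 2 groups alone 9 lower. The pathway lists (11 higher and 12 lower) gave 5 to 17 higher and 4 to 16 lower without 1 library, 5 higher and 4 lower at the stricter threshold and 20 lower without the filter. The cause was not tested.

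Replicate numbers are shared by the labels of the groups, but libraries of the same number did not deviate together (correlations of -0.19 to 0.11), so they share only a number. With the replicate block, 6 genes were higher and 23 lower after injury, 13 higher and 6 lower with the vesicles, and 3 higher and 6 lower against sham.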
